A study of Mus musculus with 4 samples.

Results

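The genes described here are 49 components of the Wnt pathway at and upstream of β-catenin, out of 53465 genes counted: 15 genes for ligands and their production, 16 for receptors, 9 for antagonists and 9 for cytoplasmic proteins. They were taken by symbol from a list, and all 49 were found in the count files. The rule itself uses no measured values, but the list was chosen with earlier results of these data known. PolyA RNA was sequenced from the ventricles of mice at post natal day 1, with 2 libraries per group. Both groups came from a cross of (alphaMHC)-Cre and Ctnnb1floxp/floxp mice and carried 2 floxed copies of Ctnnb1, the gene for β-catenin. Controls were Ctnnb1floxP/floxP; alphaMHC-Cre- and the knockout-labelled group, called Cre+ here, was Ctnnb1floxP/floxP; alphaMHC-Cre+, so the comparison includes the Cre transgene as well as what it deletes. The alphaMHC promoter drives Cre in cardiomyocytes, and other cells of the ventricle keep the gene. The labels number the libraries but do not say that they came from separate animals, so p-values measure only the spread between these samples.

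Wnt ligands are lipid-modified secreted proteins that bind Frizzled receptors and the co-receptors Lrp5 and Lrp6. Binding recruits Dishevelled to the membrane and disables the destruction complex of Axin, Apc, casein kinase 1 and Gsk3, which otherwise marks β-catenin for degradation. Other branches of the pathway run through Ror and Ryk receptors to cell polarity and calcium responses without β-catenin. In the developing heart the pathway is known for its part in cardiac specification, valve formation and cardiomyocyte proliferation.

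Reads in genes ranged from 34027143 to 45651797 per library. Ctnnb1 had 409 and 434 CPM (reads scaled to a fixed library size) in controls 1 and 2, against 527 and 460 CPM in Cre+ libraries 1 and 2. The log2 fold change, given with its SE here and below, was 0.23 ± 0.20 (adjusted p = 0.532, edgeR). A count over the whole gene does not check the deletion of some exons, so the labels were not checked by it. Summed cardiomyocyte markers were at 64242 to 71173 CPM in the controls and 84919 to 93547 CPM in the Cre+ libraries, with 12 of 12 detected. Control 1 stood apart by T cell and thymocyte markers, whose sum was 357 CPM there and 1.45 to 6.72 CPM in the other libraries. Cre+ library 2 had Xist RNA and 0 or 1 read of each of 4 Y-linked genes, while the other 3 libraries had the reverse pattern. The share of reads mapping to more than 1 place ranged from 19.4% to 21.0% in the controls and from 23.9% to 29.7% in the Cre+ libraries.

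Of the 49 genes, 46 had enough reads to be tested. Rspo4 (3, 0, 0 and 0 reads in controls 1 and 2 and Cre+ libraries 1 and 2), Lgr5 (6, 4, 6 and 2 reads) and Sfrp4 (3, 10, 10 and 6 reads) did not. By edgeR's quasi-likelihood test 0 of 46 passed an adjusted p of 0.05 in either direction, beside 0.011% of all 18157 genes tested that were higher and 0% that were lower. At an unadjusted p under 0.05, 2 were higher (Wls and Frzb) and 7 were lower (Wnt6, Wnt9a, Fzd8, Dkk3, Dvl1, Dvl2 and Gsk3a), against 11.8% and 11.2% of all genes. Wnt6 passed the filter on low counts only through the controls, so its count among the 7 supports nothing. These counts are 4.35% and 15.2% of the 46 genes. DESeq2 gave an adjusted p for 45 of the genes and called 1 higher (Frzb) and 2 lower (Dkk3 and Dvl2), against 5.85% and 4.65% of all genes. Without control 1, and likewise without control 2, DESeq2 called 0 of them. The authors' deposited table, with adjusted p-values for 45 of these genes, called the same 3 in the same directions.

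Read by position, both Cre+ libraries lay above both controls for 6 of 46 genes, or 13.0%, and below both for 17, or 37.0%. Over all genes tested the shares were 26.5% and 29.7%. Genes below both controls were 4 of 14 tested ligand genes, 4 of 15 receptors, 4 of 8 antagonists and 5 of 9 cytoplasmic genes. Wnt6 is among these ligand genes and passed the filter on low counts only through the controls. The median log2 fold change was -0.15 over the 46 genes and -0.02 over all genes. It was -0.16 for the 14 ligand genes tested, 0.05 for the 15 receptors, -0.23 for the 8 antagonists and -0.37 for the 9 cytoplasmic genes. Scaling by library totals in place of TMM moved the median of all genes to -0.26 and that of the receptors to -0.20. The sign of the receptor median thus depended on the scaling, though under both scalings it lay slightly above the median of all genes. These medians also depended on single libraries. Without control 2 the median was 0.02 over all members tested and 0.08 for ligands, and without Cre+ library 1 it was -0.33 and -0.53. The receptor median was -0.03 without control 1 and -0.11 without Cre+ library 1, against -0.02 over all genes in both cases. Without Cre+ library 2 the antagonist median was -0.05 and the cytoplasmic median -0.15, and without Cre+ library 1 the antagonist median was -0.45.

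**Figure D1:**
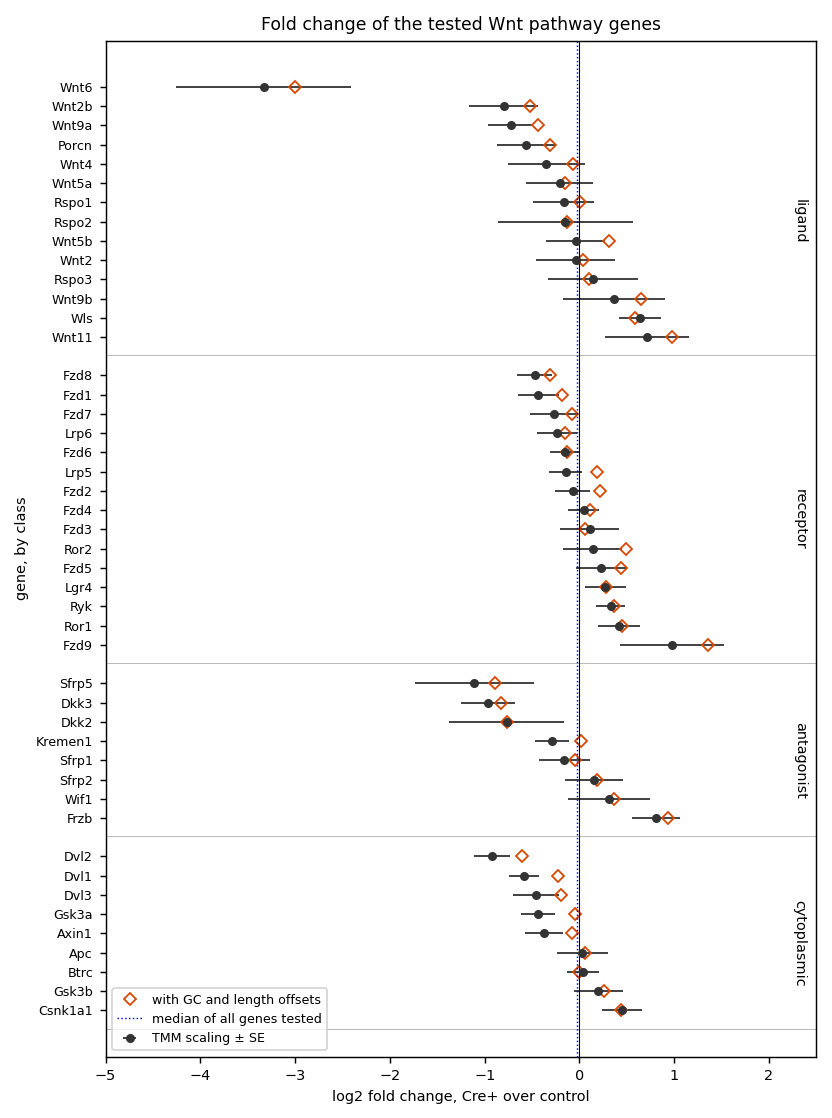
Log2 fold change of Cre+ over control libraries for the 46 tested genes, by class, as points with SE bars, with open diamonds for the values after removal of trends with GC content and length and a dotted line at the median of all genes. Wnt6 lies lowest at -3.33 and 5 of the 9 cytoplasmic genes lie well left of the dotted line.

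Levels of different genes were compared as CPM per kilobase of merged exon. The tested genes spanned 0.0891 for Rspo2 to 38.5 for Dkk3, averaged over the 4 libraries. The most abundant were Dkk3, Csnk1a1 (29.1), Sfrp1 (24.0) and Ryk (18.0), followed by Kremen1 (17.0), Gsk3a (16.8) and Fzd4 (14.0). In the controls Dkk3 led at 51.0 ± 19.0 CPM per kilobase (SD, n = 2), while Sfrp1 (25.4 ± 0.989) and Csnk1a1 (24.6 ± 1.92) did not differ beyond their spread. In the Cre+ libraries Csnk1a1 (33.6 ± 6.39), Dkk3 (26.1 ± 2.47) and Sfrp1 (22.7 ± 8.38) came in that order, and neighbours in it did not differ beyond their spread. Taking the length of the longest transcript in place of merged exons put Csnk1a1 first at 74.9, ahead of Dkk3 at 38.5.

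**Figure D2:**
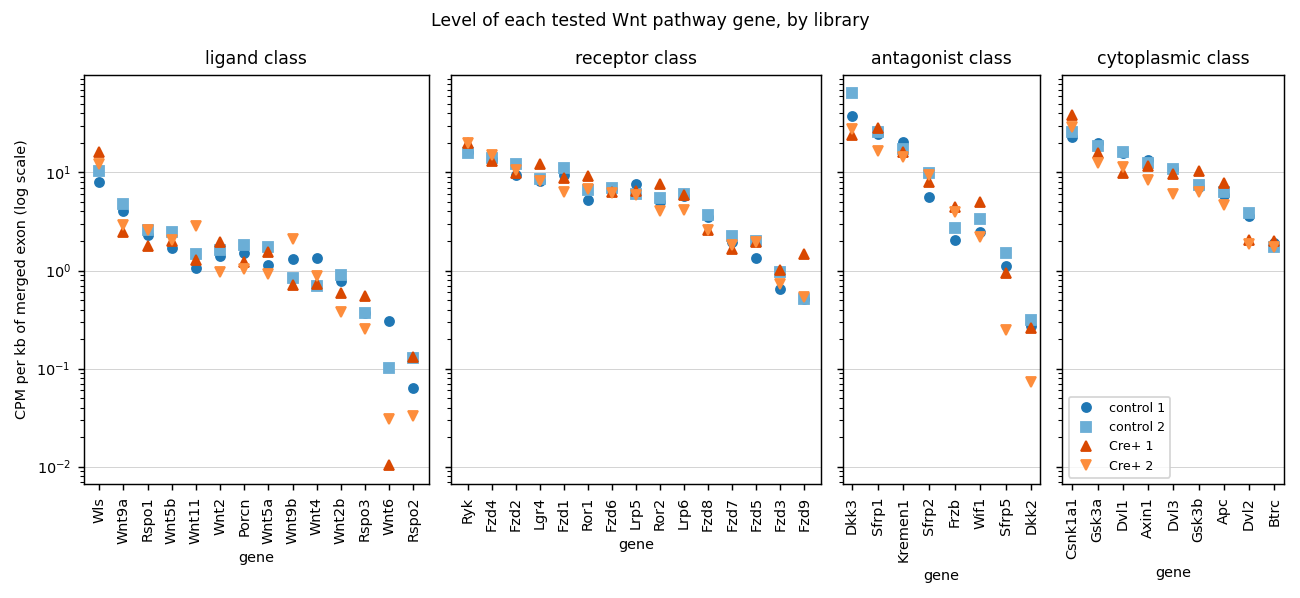
Level of each tested gene in CPM per kilobase of merged exon on a log scale, by class, with 1 marker per library. Antagonists run from Dkk2 at 0.230 to Dkk3 at 38.5 on average, and Wnt6 is the gene whose control and Cre+ points lie farthest apart.

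Among the ligand genes, Wnt9a had the highest level of the 9 Wnt ligands, and it was lower in both Cre+ libraries. Wnt9a (ENSMUSG00000000126, chr11:59306928-59333552, forward strand, GRCm38 as all positions here), known from heart valve development, was at 13.4 and 16.0 CPM in controls 1 and 2, against 8.17 and 9.61 CPM in Cre+ libraries 1 and 2. The groups did not overlap, and the log2 fold change was -0.73 ± 0.24 (SE; unadjusted p = 0.0220, adjusted p = 0.153, edgeR). Per length, Wnt9a made up 30.8% and 32.8% of the sum of the 9 Wnt ligands in the controls and 21.7% and 22.1% in the Cre+ libraries. In RNA from whole ventricle, fewer cells of a type and less RNA per cell cannot be told apart, here and for every gene below.

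Wnt6 (ENSMUSG00000033227, chr1:74771892-74785322, forward strand) was rare in all libraries. It had 31 and 11 reads in controls 1 and 2 and 1 and 2 reads in the Cre+ libraries, or 0.665, 0.225, 0.0226 and 0.0676 CPM. The ratio of Cre+ to control reads, given TMM-scaled library sizes, was 0.0924 (exact 95% interval 0.0183 to 0.289, for counting error only). The fitted log2 fold change was -3.33 ± 0.93 (SE; unadjusted p = 0.0101, adjusted p = 0.123, edgeR). Wnt6 passed the filter on low counts only through the controls, so this test and this interval support nothing. Control 1, with the most Wnt6, was also the library with thymocyte markers, and its thymic and lung epithelial markers summed to 13.2 CPM against 0.248 to 1.12 CPM elsewhere. Control 2, with 6.72 and 0.695 CPM for the sums of these 2 marker lists, was above both Cre+ libraries in Wnt6. In Cre+ libraries 1 and 2 the T cell and thymocyte sum was 2.30 and 1.45 CPM, and the epithelial sum 0.248 and 1.12 CPM. The part of these markers in the Wnt6 values was not tested. Wnt4 was likewise highest in control 1, at 5.66 CPM, with 2.94 CPM in control 2 and 3.09 and 3.65 CPM in the Cre+ libraries.

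Wls and Porcn act on all Wnt ligands. Wls (ENSMUSG00000028173, chr3:159839672-159938664, forward strand), the carrier that takes Wnt proteins to the cell surface, was at 70.1 and 91.0 CPM in the controls, against 144 and 107 CPM in the Cre+ libraries, without overlap (log2 fold change 0.64 ± 0.22, unadjusted p = 0.0293, adjusted p = 0.171, edgeR). Porcn, the acyltransferase that attaches their lipid, was at 4.50 and 5.50 CPM in the controls, against 3.63 and 3.11 CPM in the Cre+ libraries (log2 fold change -0.57 ± 0.31, unadjusted p = 0.115, edgeR). Porcn is X-linked, and Cre+ library 2 differed from the others in Xist. The 2 genes thus lay on opposite sides of the controls, and neither difference passed the adjusted threshold.

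The other Wnt ligands showed no shift in common. Wnt2b was at 3.28 and 3.80 CPM in the controls, against 2.46 and 1.59 CPM in the Cre+ libraries. Wnt11, a ligand of β-catenin-independent signalling, was at 4.35 and 6.09 against 5.28 and 11.9 CPM, and Wnt9b at 5.92 and 3.82 against 3.25 and 9.37 CPM, both highest in Cre+ library 2. Groups overlapped for Wnt2, Wnt5a and Wnt5b, with log2 fold changes of -0.04 ± 0.42, -0.21 ± 0.35 and -0.04 ± 0.31. Of the R-spondins, secreted proteins that raise Frizzled levels by way of Lgr receptors, Rspo1 made up 72.3% to 90.0% of the family's sum per length, at 4.44 and 5.03 CPM in the controls, against 3.47 and 4.97 CPM in the Cre+ libraries. Rspo2 and Rspo3 stayed at 1.71 CPM or less in each library.

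Among the receptors, Fzd8 was lower and Ryk higher in both Cre+ libraries. The summed level of Fzd1 to Fzd9 was 47.2 and 53.6 CPM per kilobase in the controls and 46.9 and 45.9 in the Cre+ libraries, a gap between groups that was small beside the spread of the controls. Fzd4, which also serves as the receptor for norrin, held the largest share of that sum in each library, 28.8% and 26.1% in the controls and 28.1% and 33.2% in the Cre+ libraries. Its CPM overlapped between groups, at 91.3 and 93.9 against 88.6 and 102, with a log2 fold change of 0.05 ± 0.16 (adjusted p = 0.894, edgeR) that changed sign, to -0.20, under scaling by library totals.

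Fzd8 (ENSMUSG00000036904, on chromosome 18) was at 21.2 and 21.9 CPM in the controls, against 15.7 and 15.4 CPM in the Cre+ libraries. Both groups were tight and did not overlap (log2 fold change -0.47 ± 0.18, unadjusted p = 0.0399, adjusted p = 0.194, edgeR). Fzd1 was at 39.7 and 46.3 against 37.0 and 26.6 CPM (log2 fold change -0.43 ± 0.21, unadjusted p = 0.0883, edgeR), and most of its difference lay in Cre+ library 2. Fzd6 and Fzd7 also lay below both controls, with log2 fold changes of -0.15 ± 0.16 and -0.27 ± 0.25. Fzd9 was at 1.2 CPM in both controls, against 3.41 and 1.22 CPM in the Cre+ libraries, so that 1 library carried its difference. Fzd2, Fzd3 and Fzd5 overlapped between groups.

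Ryk, an atypical Wnt receptor with an inactive kinase domain, had the highest level per length of the 16 receptors. It was at 73.0 and 71.9 CPM in the controls, against 91.6 and 90.3 CPM in the Cre+ libraries, a gap far larger than the spread within either pair (log2 fold change 0.33 ± 0.15, unadjusted p = 0.0697, adjusted p = 0.251, edgeR). The size of this difference depended on the scaling, and with library totals the log2 fold change of Ryk was 0.09. Its pseudogene Ryk-ps1 had 0 reads. Ror1, a receptor for Wnt5a, was at 30.5 and 38.6 against 53.2 and 39.0 CPM (log2 fold change 0.42 ± 0.22). Its relative Ror2 overlapped between groups, as did the co-receptors Lrp5 and Lrp6, with log2 fold changes of -0.14 ± 0.18 and -0.24 ± 0.21. Lgr4, an R-spondin receptor, was at 48.7 and 50.8 CPM in the controls, against 71.4 and 48.7 CPM in the Cre+ libraries.

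Among the antagonists, Frzb was higher and Dkk3 lower in both Cre+ libraries, and these were 2 of the 3 genes that DESeq2 called. Frzb (ENSMUSG00000027004, chr2:80411970-80447625, reverse strand), also named Sfrp3, is a secreted protein that binds Wnt ligands. It was at 6.69 and 8.85 CPM in the controls, against 14.3 and 12.8 CPM in the Cre+ libraries. The groups did not overlap, with a log2 fold change of 0.80 ± 0.26 (unadjusted p = 0.0197, adjusted p = 0.148, edgeR; adjusted p = 0.0485, DESeq2). Within the secreted Wnt-binding genes Sfrp1, Sfrp2, Sfrp4, Sfrp5, Frzb and Wif1, its share per length was 5.75% and 6.26% in the controls and 9.41% and 12.2% in the Cre+ libraries. Summed markers of fibroblasts were at 3457 and 5122 against 5254 and 4481 CPM, with 2 of 12 genes above both controls and 1 below both. Those of mural and smooth muscle cells were at 1039 and 1211 against 2212 and 1767 CPM, with 1 of 9 above both, 4 below both and a median log2 fold change of -0.34. Markers of endocardium and valve summed to 330 and 380 against 353 and 534 CPM. Of these 8 genes 2 lay above both controls and 0 below both, with a median log2 fold change of 0.35. The part of these cell types in the Frzb values was not tested.

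Sfrp1 dominated that group, at 68.6% and 59.7% of the sum in the controls and 60.8% and 51.5% in the Cre+ libraries. It was at 108 and 114 CPM in the controls, against 125 and 73.2 CPM in the Cre+ libraries, which lay on both sides of the controls. Its log2 fold change of -0.16 ± 0.27 (adjusted p = 0.758, edgeR) turned to 0.18 without Cre+ library 2. Sfrp5 showed its lowest value in the same library, with 2.12 and 2.84 CPM in the controls, against 1.78 and 0.473 CPM in the Cre+ libraries (log2 fold change -1.11 ± 0.63, unadjusted p = 0.126, edgeR). Sfrp2 and Wif1 overlapped between groups, with log2 fold changes of 0.15 ± 0.31 and 0.31 ± 0.43.

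Dkk3 (ENSMUSG00000030772, chr7:112116017-112159057, reverse strand), a divergent member of the Dickkopf family and the most abundant antagonist gene here, was at 126 and 216 CPM in controls 1 and 2, against 81.9 and 93.6 CPM in Cre+ libraries 1 and 2. Both Cre+ libraries lay below both controls, which themselves differed widely. The log2 fold change was -0.97 ± 0.28 (unadjusted p = 0.0138, adjusted p = 0.134, edgeR; adjusted p = 0.0274, DESeq2) and was -0.52 without control 2. Dkk3 is also expressed in atrial muscle, and 6 other atrial markers were examined beside it. Their sum was 1658 and 2931 CPM in the controls, against 1513 and 1692 CPM in the Cre+ libraries, and 3 of the 6 lay below both controls. Control 2, with the most Dkk3, was also the highest library for Myl7, Myl4, Sln, Bmp10 and Stard10. All 6 markers were detected in each library, and the part of atrial tissue in the Dkk3 values was not tested.

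**Figure D3:**
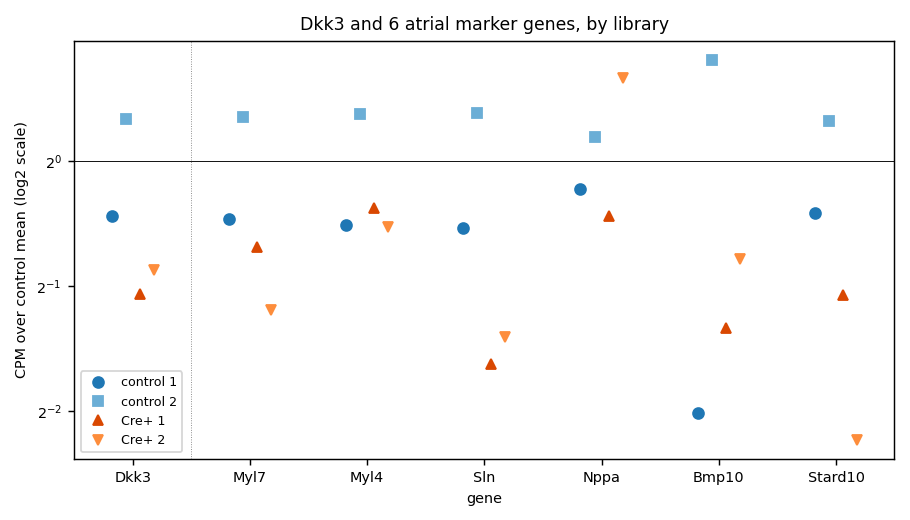
CPM of Dkk3 and of 6 atrial marker genes in each library, divided by the mean of the 2 controls, on a log2 axis. Control 2 is the highest library for Dkk3 and for all of the atrial markers except Nppa.

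Dkk2, an antagonist that binds Lrp6, was at 1.01 and 1.16 CPM in the controls, against 0.970 and 0.271 CPM in the Cre+ libraries. Kremen1, a membrane partner of Dickkopf proteins, was at 156 and 133 against 126 and 111 CPM (log2 fold change -0.29 ± 0.18, unadjusted p = 0.158, edgeR). For both genes the groups did not overlap but the gap between them was small beside the spread within them.

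**Figure D4:**
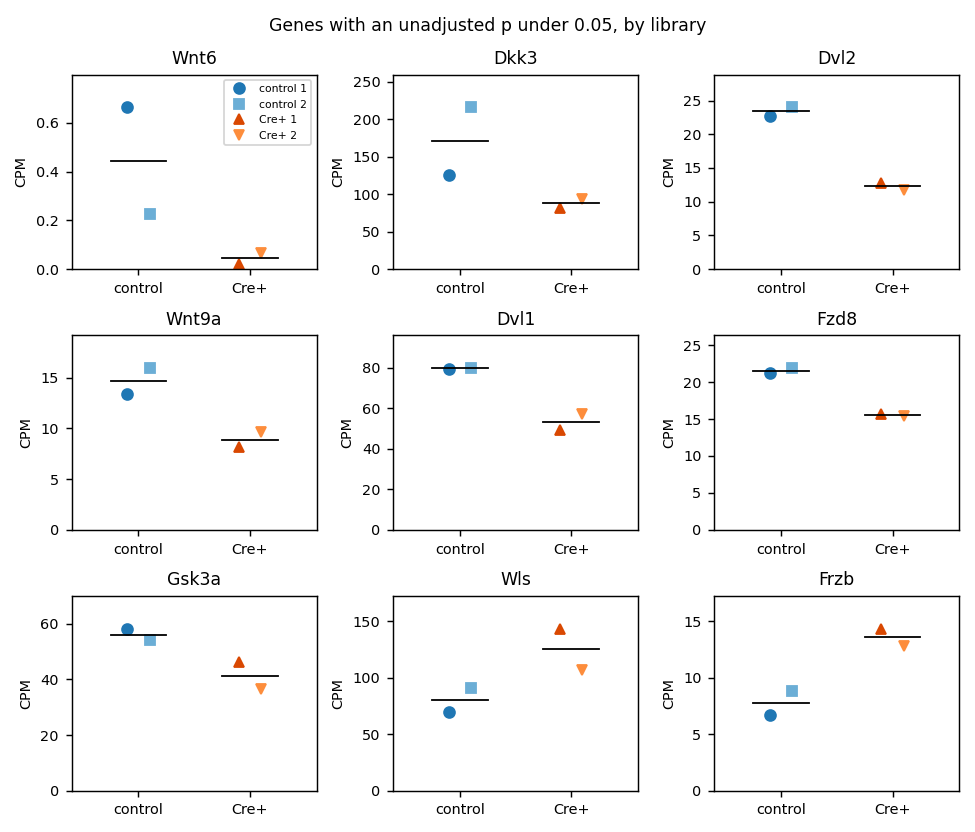
CPM of the 9 genes with an unadjusted p under 0.05 in each of the 4 libraries, 1 panel per gene, with lines at the group means. For each gene the 2 Cre+ points lie on the same side of both controls, above them for Wls and Frzb and below them for the other 7. Wnt6, among the 7, passed the filter on low counts only through the controls.

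The cytoplasmic class held Dvl2, the gene with the lowest unadjusted p of the 46. The proteins of the Dishevelled genes carry the signal from Frizzled to the destruction complex and to the polarity branch. All 3 Dishevelled genes lay below both controls, as did 29.7% of all genes tested. Dvl2 (ENSMUSG00000020888, chr11:70000595-70012301, forward strand) was at 22.7 and 24.1 CPM in the controls, against 12.8 and 11.8 CPM in the Cre+ libraries. The groups were far apart relative to their spread, with a log2 fold change of -0.93 ± 0.19 (unadjusted p = 0.00276, adjusted p = 0.0925, edgeR; adjusted p = 0.00390, DESeq2). In edgeR its log2 fold change was -0.97 without control 1 and -0.88 without control 2. It was -0.94 without Cre+ library 1 and -0.86 without Cre+ library 2. DESeq2 did not call Dvl2 without control 1 or without control 2.

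Dvl1 (ENSMUSG00000029071, chr4:155847402-155859303, forward strand) was at 79.6 and 80.0 CPM in the controls, against 49.1 and 57.1 CPM in the Cre+ libraries, again without overlap (log2 fold change -0.59 ± 0.16, unadjusted p = 0.0102, adjusted p = 0.124, edgeR). Dvl3 was at 69.9 and 68.8 CPM in the controls, against 62.2 and 38.7 CPM in the Cre+ libraries (log2 fold change -0.46 ± 0.24, adjusted p = 0.315, edgeR), with most of the gap in library 2. Summed per length, the 3 genes were at 30.4 and 30.6 CPM per kilobase in the controls and at 21.6 and 19.3 in the Cre+ libraries. The deposited counts do not say whether strand was used, and 18.3% of the exon bases of Dvl2 overlap Acadvl on the opposite strand, a gene at 374 to 441 CPM whose groups overlapped. For Dvl1 the overlap with a gene on the other strand was 0.721%, and 10 of the 49 genes had such an overlap.

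The 250 bases upstream of the start are shown for Dvl1, Dvl2 and Gsk3a, the cytoplasmic genes with the lowest unadjusted p, to let their base composition and motifs be compared. Sequences are RefSeq's for GRCm38.p6, given 5′ to 3′ on the strand of the gene. Capitals mark CACGTG, the E-box letters, in Dvl2 and a match to a TCF/LEF motif in Gsk3a, on either strand.
Dvl1, chr4:155847152-155847401, forward strand: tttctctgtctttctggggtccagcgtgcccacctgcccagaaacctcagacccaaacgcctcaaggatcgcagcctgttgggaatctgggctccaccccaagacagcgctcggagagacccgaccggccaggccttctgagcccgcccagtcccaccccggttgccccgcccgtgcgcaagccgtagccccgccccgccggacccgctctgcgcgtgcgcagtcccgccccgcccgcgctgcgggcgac
Dvl2, chr11:70000342-70000591, forward strand: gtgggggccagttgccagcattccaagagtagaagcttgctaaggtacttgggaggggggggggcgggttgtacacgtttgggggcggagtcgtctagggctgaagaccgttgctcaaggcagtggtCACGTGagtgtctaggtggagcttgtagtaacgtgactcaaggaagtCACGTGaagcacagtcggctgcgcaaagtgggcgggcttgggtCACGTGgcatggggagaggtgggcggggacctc
Gsk3a, chr7:25237852-25238101, reverse strand: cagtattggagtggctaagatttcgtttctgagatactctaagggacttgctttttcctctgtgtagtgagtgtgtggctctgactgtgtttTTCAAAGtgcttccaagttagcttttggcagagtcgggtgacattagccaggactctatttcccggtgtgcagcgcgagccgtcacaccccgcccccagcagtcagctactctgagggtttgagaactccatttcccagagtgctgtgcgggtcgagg

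TCF and LEF proteins bind DNA and recruit β-catenin to target genes. Of the 49 genes, 30 had an entry in the promoter table, with 33 windows. The letters CTTTG followed by 2 bases that are each A or T, searched on both strands, occurred in 4 of these windows (Fzd7, Wnt5b, Gsk3a and Wnt11), or 12.1%, and in 14.8% of all 32817 windows. CACGTG, searched after the Dvl2 sequence had been seen, occurred in 5 of the 33 windows, or 15.2%, and in 6.02% of all. The window of Dvl2 held 3 copies, a number reached or passed in 20 windows of the whole table. GC content was 71.2%, 60.8% and 52.0% in the windows of Dvl1, Dvl2 and Gsk3a, with a median of 65.2% for the 33 windows and 52.4% for all. A match is a stretch of letters and not a bound site, and the absence of a match says only that these letters were not in the window.

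Of the destruction complex, Gsk3a and Axin1 lay below both controls, as did 29.7% of all genes tested. Csnk1a1 lay above both, as did 26.5%. Gsk3a (ENSMUSG00000057177, chr7:25228258-25237851, reverse strand), a kinase that phosphorylates β-catenin, was at 58.2 and 54.0 CPM in the controls, against 46.0 and 36.5 CPM in the Cre+ libraries (log2 fold change -0.44 ± 0.18, unadjusted p = 0.0478, adjusted p = 0.213, edgeR). A gene at 1.15 to 2.31 CPM, 9130221H12Rik, overlaps 28.3% of its exon bases on the opposite strand. Its paralogue Gsk3b was at 69.5 and 74.0 against 103 and 61.8 CPM, on both sides of the controls (log2 fold change 0.20 ± 0.26). Axin1, the scaffold of the complex, was at 51.7 and 47.7 against 44.4 and 32.3 CPM (log2 fold change -0.37 ± 0.20, unadjusted p = 0.112, edgeR).

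Csnk1a1, the casein kinase that primes β-catenin for Gsk3, was at 244 and 273 CPM in the controls, against 400 and 305 CPM in the Cre+ libraries, without overlap (log2 fold change 0.45 ± 0.22, unadjusted p = 0.0813, adjusted p = 0.269, edgeR). Apc, the other scaffold, was at 96.0 and 101 against 127 and 74.3 CPM, and Btrc, which recognises phosphorylated β-catenin for ubiquitination, at 32.3 and 29.0 against 33.8 and 29.2 CPM. Both overlapped between groups, with log2 fold changes of 0.03 ± 0.27 and 0.04 ± 0.17. The kinases and scaffolds of the complex therefore showed values in both directions.

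Fold changes of all genes varied with the GC content of the transcript. With all genes split into 4 equal bins from the least to the most GC, the median log2 fold change over all genes was 0.17, 0.03, -0.09 and -0.25. Of the 46 genes, 21 were in the bin with the most GC, where their median was -0.37, and 6 in the bin with the least, where it was 0.12. After offsets for GC content and length were put into the edgeR fit, the median of the 46 genes moved from -0.15 to 0.01, that of the cytoplasmic class from -0.37 to -0.04 and that of the receptors from 0.05 to 0.18. At an unadjusted p under 0.05, 4 genes were then higher (Wls, Ryk, Frzb and Csnk1a1) and 3 lower (Wnt6, Dkk3 and Dvl2), against 12.5% and 9.57% of all genes. The count of Wnt6 among the 3 again supports nothing, as it passed the filter on low counts only through the controls.

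Single genes differed in how far they moved with these offsets. Gsk3a went from -0.44 to -0.04, Dvl1 from -0.59 to -0.22 and Dvl3 from -0.46 to -0.20 on the log2 scale. Wnt9a went from -0.73 to -0.44 and Fzd8 from -0.47 to -0.32. Dvl2 went from -0.93 to -0.60 (unadjusted p = 0.0149, edgeR), Dkk3 from -0.97 to -0.83 and Wls from 0.64 to 0.58. Frzb, at 0.80 before and 0.93 after, and Ryk, at 0.33 and 0.36, were slightly farther from 0 with the offsets. The groups differed in this trend, and its source was not tested.

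**Figure D5:**
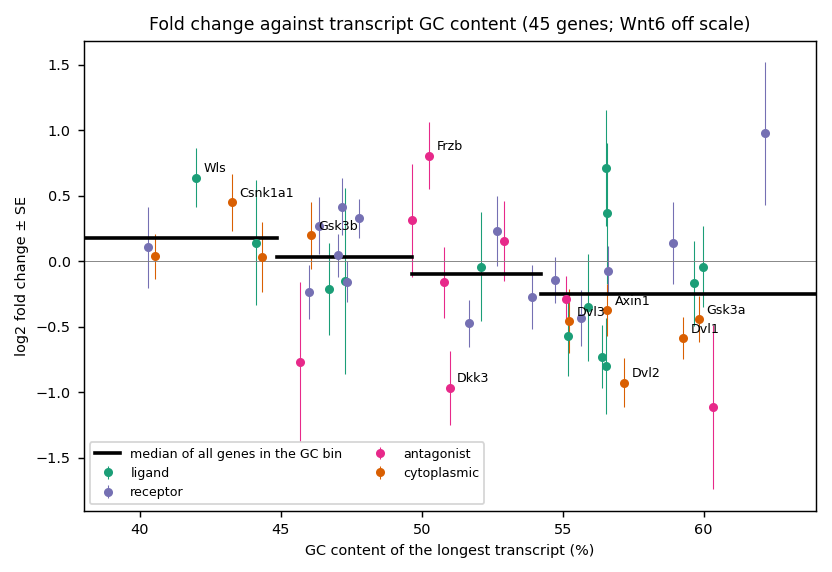
Log2 fold change ± SE of 45 tested genes against the GC content of the longest transcript in percent, with the medians of all genes in 4 bins of GC content. The medians of all genes go from 0.17 to -0.25 with rising GC content, and the Dishevelled genes and Gsk3a lie at the GC-rich end.

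Further genes of the pathway were read from the same fit in 4 lists, and 0 genes passed an adjusted p of 0.05 in edgeR. The lists share 3 genes, Axin2, Lgr6 and Nkd1, which are counted in each list that holds them. The counts that follow stand beside 11.8% higher and 11.2% lower of all genes by unadjusted p, and 5.85% and 4.65% by DESeq2. Of 17 tested genes for other secreted and surface proteins, 4 were higher and 2 lower by unadjusted p with the same threshold. DESeq2 gave an adjusted p for 16 of them and called 1 lower. The 2 lower genes are 11.8% of the list, close to the share over all genes. Lgr6, another R-spondin receptor, was at 31.5 and 38.9 CPM in the controls, against 17.3 and 11.8 CPM in the Cre+ libraries (log2 fold change -1.27 ± 0.25, adjusted p = 0.0925, edgeR). Gpc3, a glypican that binds Wnt ligands, was at 68.0 and 83.6 against 108 and 102 CPM (0.47 ± 0.17). Rnf43, a ligase that removes Frizzled from the surface, was at 1.99 and 0.920 against 0.609 and 0.169 CPM (-1.84 ± 0.69). Rnf43 was thus rare, and its value in Cre+ library 2 was near the 0.0882 CPM of 3 reads there before TMM scaling. Its count among the 2 lower genes therefore supports little. Wnt1, Wnt3a, Dkk4 and Cer1 had 0 reads in each library.

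Of 26 other cytoplasmic genes of β-catenin signalling, 3 were higher and 2 lower by unadjusted p. DESeq2 called 1 and 2. Ppp2ca, a catalytic subunit of the phosphatase PP2A, was at 160 and 191 CPM in the controls, against 286 and 284 CPM in the Cre+ libraries (log2 fold change 0.70 ± 0.19). Axin2, the feedback-induced relative of Axin1, had a log2 fold change of -1.18 ± 0.32, and Ccdc88c, a Dishevelled-binding protein, one of -1.37 ± 0.42, each below both controls. Axin1 and Axin2 thus both lay below both controls, as did 29.7% of all genes tested. With the GC and length offsets the log2 fold change of Axin1 was -0.08, while Axin2 stayed lower at an unadjusted p under 0.05 (edgeR).

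Of 30 tested genes of planar cell polarity and Wnt/calcium signalling, 2 were higher and 6 lower by unadjusted p. The calls of DESeq2 were 0 and 3. Prickle3, a core polarity protein, was at 31.2 and 28.3 against 14.2 and 17.2 CPM (log2 fold change -0.92 ± 0.19). Nfatc4, a calcium-responsive transcription factor, was at 19.7 and 24.0 against 10.8 and 11.4 CPM (-0.98 ± 0.21), and Scrib, a polarity scaffold, at 68.4 and 66.6 against 46.0 and 44.2 CPM (-0.58 ± 0.15). With the GC and length offsets the log2 fold change of Scrib was -0.12.

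Of 25 tested nuclear factors and targets of β-catenin signalling, 2 were higher (Sp5 and Ccnd1) and 10 lower by unadjusted p. Sp5 and Ccnd1 each lay above both controls. DESeq2 gave an adjusted p for 23 of them. Its calls were 0 and 6, and both Axin2 and Lgr6 are among the 6. With the GC and length offsets Sp5 and Ccnd1 stayed higher by unadjusted p and 7 were lower, against 12.5% and 9.57% of all genes. Lef1 and Tcf7, which T cells also express, were highest in control 1, the library with thymocyte markers, at 9.16 and 93.0 CPM. They were at 0.613 and 3.84 CPM in control 2 and at 0.361 to 0.372 and 2.23 to 2.32 CPM in the Cre+ libraries. Both are among the 10 lower genes and among the 7 lower with the offsets, and Lef1 is among the 6 calls of DESeq2. The part of T cell RNA in control 1 in these counts was not tested. Bcl9, a β-catenin co-activator, was at 81.4 and 78.0 against 54.0 and 37.3 CPM (log2 fold change -0.80 ± 0.21), and Bambi, a target gene, at -0.81 ± 0.16. Proliferation markers also differed between the groups, summing to 183 and 252 CPM in the controls, against 455 and 571 CPM in the Cre+ libraries with 8 of 8 above both controls. The part of that difference in the Wnt pathway values was not tested.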

How the data were processed

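RNA counts of 4 libraries, 2 controls and 2 knockout-labelled, were analysed. Reads were processed with bcl2fastq 2.16.0.10, FastQC 0.11.5, STAR 2.5.3a, HTSeq 0.6.1 and DESeq2 1.18 on GRCm38, per the submitters' processing notes. Neither the annotation release nor the strand setting of the counting is given in the sources used here. The deposited counts are whole reads per gene without scaling. The authors' deposited table also gives log2 fold changes and adjusted p-values, used only where named, and 4 columns of normalized values per sample that were not used.

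Gene identifiers were matched to GENCODE vM21 (53360 of 53465). The summary categories of the counts were kept out of library sizes: multi-mapped reads were 19.4% to 29.7% of reads per library, reads outside genes 3.18% to 6.45% and ambiguous reads 3.90% to 4.85%. Counts were fitted in R 4.3.3 with edgeR 4.0.16 (filterByExpr defaults, TMM, quasi-likelihood test, group as the only term, 2-sided, Benjamini-Hochberg over all 18157 genes tested, threshold 0.05). TMM factors were 1.08 and 1.10 (controls) and 0.972 and 0.869 (Cre+). CPM values are TMM-scaled. A count of 0 allows up to 0.0657 to 0.0882 CPM, the level of 3 reads, before TMM scaling. The SE of a log2 fold change is its size divided by the square root of F. The scripts were tested on simulated data.

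The members and all gene lists were chosen with earlier results of these data known. Full values were given for 15 members by a rule: in each class those with an unadjusted p under 0.05, at least the 3 with the smallest p and the 2 with the highest level per kilobase. The 3 genes with the smallest p were named from each other list, while any further gene described was picked with its values in view. Alternatives were other scalings, DESeq2 1.42.0, voom of limma 3.58.1, no filter on low counts, a replicate block, GC and length offsets and leaving out each library.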

Additional observations from a re-analysis of the deposited data

How the results depend on the processing

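With edgeR, 2 genes of all 18157 were called higher and 0 lower, and 0 members and 0 other pathway genes in either direction. DESeq2 called 964 higher and 767 lower of all genes, 1 and 2 members and 1 and 10 distinct other pathway genes. limma-voom called 0 genes higher. Without the filter on low counts edgeR called 313 higher and 241 lower, with 1 other pathway gene lower. The pairing of replicate numbers is not given by the labels, and the correlation of same-numbered libraries was -0.12. With the replicate block 9 genes were called higher and 9 lower and 0 members. By unadjusted p (threshold 0.05) 2 members were then higher and 5 lower, against 9.59% and 9.43% of all genes. The replicate block with GC and length offsets gave 0 genes higher, and 3 members higher and 3 lower at that unadjusted p, against 9.26% and 7.44% of all genes. With crossed numbers, chosen after seeing the data, the block called 501 genes higher and 440 lower, 2 members lower and 6 other pathway genes lower. Leaving out each library in turn, edgeR called 0 to 9 genes higher and 0 to 30 lower, 0 members, and 0 to 1 other pathway genes lower. DESeq2, left with each subset as an alternative chosen after seeing the data, called 104, 197, 1370 and 576 genes higher and 53, 324, 1085 and 586 lower without control 1, control 2, Cre+ 1 and Cre+ 2, 0 to 2 members higher and 0 to 3 lower, and 0 to 4 other pathway genes higher and 0 to 18 lower. In these subsets the lone library of a group is assumed to vary like the other group. By that p, members numbered 2 higher and 7 lower, while library totals, which moved the median of all genes to -0.26, gave 0 and 12 (6.30% and 20.4% of all genes), GC and length offsets 4 and 3 (12.5% and 9.57%), and leaving out each library 0 to 11 higher and 2 to 11 lower with edgeR, or 0 to 8 and 1 to 9 with DESeq2. Over all genes these shares ranged from 4.10% to 16.1% higher and 3.59% to 13.5% lower with edgeR, and from 2.74% to 7.17% and 1.53% to 6.65% with DESeq2. The log2 fold change of Fzd4, 0.05, was -0.20 with library totals and ranged from -0.053 (without Cre+ library 2) to 0.20 (without Cre+ library 1). That of Sfrp1, -0.16, ranged from 0.18 to -0.55 over the same omissions. Without Cre+ library 2 DESeq2 gave -0.056 and 0.18. The cause of these differences was not tested. The other 13 of 15 named members kept their direction in every setting that gave a value; without control 1, Wnt6 had too few reads to be tested. Among the rarest members, such as Rspo2 and Wnt6, depth limits what could be detected.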
